A study of Mus musculus with 23 samples.

Results

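Ribosome biogenesis genes encode the nucleolar machinery that transcribes ribosomal RNA (rRNA), cuts and modifies it, and assembles it with ribosomal proteins. This report describes 36 such genes in mouse liver, chosen by name from their known roles among the 37074 gene names on the array, of which 21047 genes were tested. Each gene was read by 1 probe, the one with the highest mean signal over all arrays, and its level is the log2 median signal after quantile normalisation. All 36 genes passed the filter on dim probes and were well above background on all 23 arrays. A gene was called changed when the limma test gave a Benjamini-Hochberg adjusted p of at most 0.05 over all probes and a fold change above 1.5.

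The arrays measured whole-liver RNA from 23 male C57Bl6/J mice, 1 array per mouse, in 4 groups. WT CONT (6 mice) and Pxr-/- CONT (6 mice) received corn oil, and WT PCN (5 mice) and Pxr-/- PCN (6 mice) received pregnenolone carbonitrile (PCN), a ligand of the rodent pregnane X receptor (PXR), at 100 mg/kg in corn oil. Both agents were injected into the peritoneum once a day for 4 days, and the mice, which had free access to food, were killed 6 h after the last injection, at zeitgeber time 6. The labels call this state fed and the study's text calls it semi-fasted. Pxr-/- mice lack PXR in the whole body. They came from a colony bred in the authors' facility for 10 years, while WT mice were bought at 6 weeks of age, so that genotype and colony cannot be told apart. Mice of all 4 groups were acclimatised for 2 weeks, and the age of the Pxr-/- mice is not given. In whole tissue, a lower level can come from fewer cells of a type or from less RNA per cell, and these cannot be told apart either.

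The PXR target Cyp3a11, a drug-metabolising cytochrome, had levels of 16.90 to 17.29 in WT PCN and 12.83 to 14.02 in WT CONT. Its change by PCN in Pxr-/- mice was not called (0.31 ± 0.22 on the log2 scale, adjusted p = 0.431). Cyp2c55, another PXR target, had levels of 12.61 to 13.86 in WT PCN and 6.64 to 8.10 in WT CONT, and it was also higher in Pxr-/- CONT (9.60 to 10.62) than in WT CONT, while its change by PCN in Pxr-/- mice was not called (0.54 ± 0.22, adjusted p = 0.14). The probe of Nr1i2, the gene of PXR, did not separate the genotypes (-0.03 ± 0.28 in Pxr-/- CONT against WT CONT, adjusted p = 0.977), and where it lies relative to the deleted part was not analysed here. All 10 hepatocyte markers were measured in every group, and none was called by PCN in WT mice by limma, where 2 of them passed the adjusted p alone, both lower (Apob, -0.52 ± 0.07, adjusted p = 1.25e-05, and Trf, -0.18 ± 0.06, adjusted p = 0.0311). In Pxr-/- mice Apoa1 was called higher with PCN (0.62 ± 0.10, adjusted p = 0.000955). Between the treated groups Tat was called higher in Pxr-/- PCN (0.73 ± 0.22, adjusted p = 0.0436), Apoa1 and Apob passed the adjusted p in the same direction, and both did so in the interaction with a lower change in WT mice. Their part in the results below was not tested. Between 29510 and 33321 probes per array were well above background. Before normalisation the WT PCN arrays were brighter than the WT CONT arrays by 0.14 on the log2 scale (exact permutation test, two-sided p = 0.0476, adjusted p = 0.143 over 3 comparisons), and the part of brightness in the results below was not tested.

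In the nucleolus, RNA polymerase I makes a long precursor rRNA. Small nucleolar ribonucleoproteins (snoRNPs) modify it at many positions, and assembly factors then fold, cut and export the small and the large subunit. The transcription factor MYC is known to raise many of these genes together in growing cells, and ribosome production is known to rise when liver cells enlarge or divide.

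PCN raised 10 of the 36 genes in WT mice, and none was called lower (3.78% of all genes tested were called higher and 2.39% lower). No gene of the set reached an unadjusted p under 0.05 in the lower direction. The 10 were, from the largest change down, Gar1, Nop58, Nolc1, Rrp12, Nop56, Polr1a, Wdr43, Gnl3, Polr1b and Polr1e, with log2 changes from 1.15 to 0.59. A further 15 genes passed the adjusted p with a fold of at most 1.5, with log2 changes from 0.26 to 0.58, so that 25 passed the adjusted p alone in the higher direction (11.6% of all genes). The other 11 did not pass it, and their changes ran from -0.19 to 0.33. The median change over the 36 genes was 0.39, against -0.02 over all genes tested, and 34 of the 36 changes were above 0 (36 with the authors' deposited values, where the median change of all probes was 0.11). Within the arrays of washing batch 1 and of washing batch 2 alone the median was 0.36 and 0.43, and 32 genes had changes above 0 in both.

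**Figure D1:**
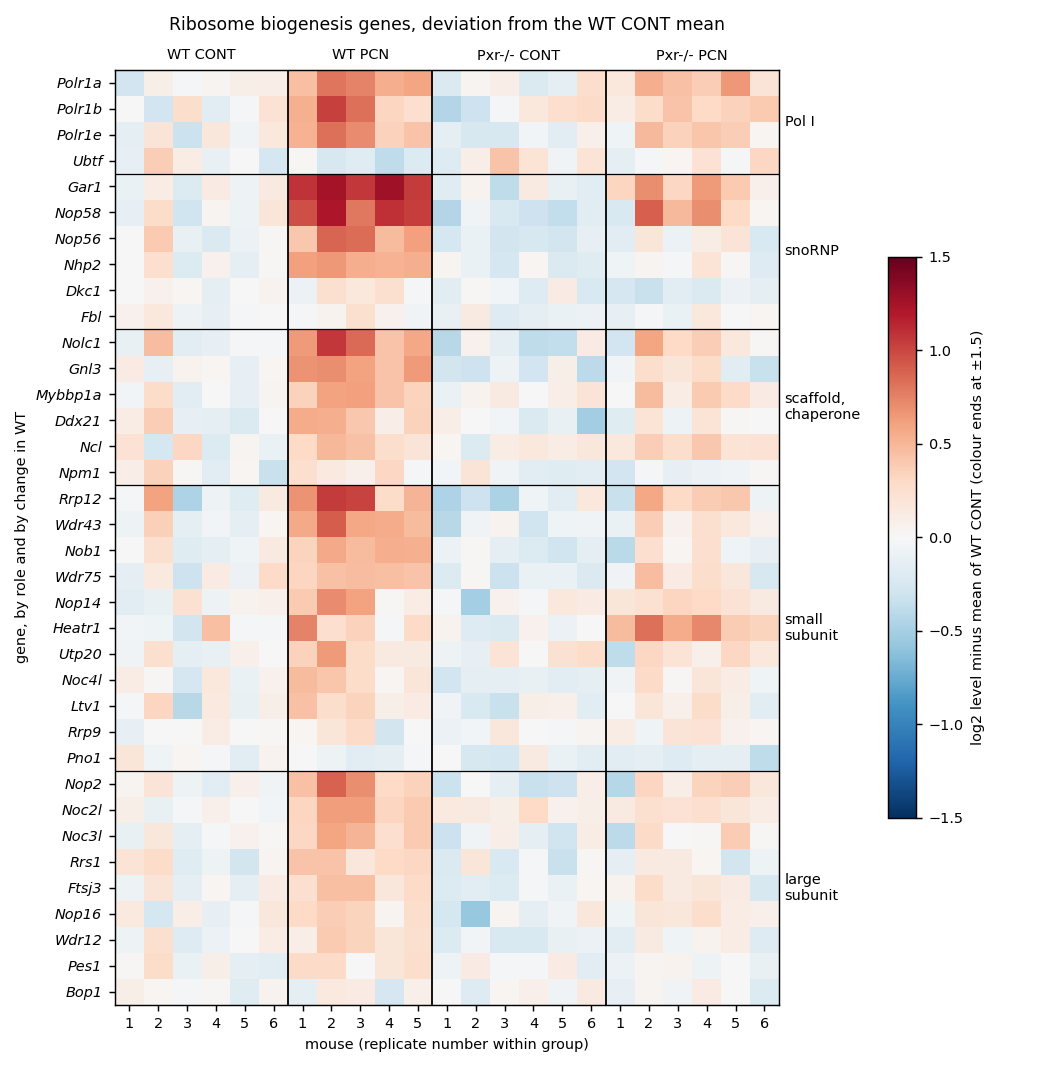
Each row is 1 of the 36 genes, grouped by role, and each column 1 of the 23 mice; colour gives the log2 level minus the gene's mean in WT CONT, red for higher and blue for lower. The 5 WT PCN columns are red for most genes, with Ubtf, Pno1, Rrp9, Fbl and Bop1 pale, and the Pxr-/- PCN columns are fainter and more mixed.

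The RNA polymerase I group holds 3 subunits of the polymerase and the factor Ubtf, which opens and activates rRNA genes. Polr1a, the largest subunit, had levels of 10.73, 11.09, 11.02, 10.83 and 10.88 in the 5 WT PCN mice, and 9.99 to 10.38 in WT CONT with a median of 10.34. The groups did not overlap, and the change was 0.64 ± 0.10 (fitted log2 change ± SE), or 1.56-fold (limma, adjusted p = 9.68e-05). Polr1e had levels of 8.49, 8.81, 8.69, 8.33 and 8.40 in WT PCN, against 7.65 to 8.17 in WT CONT with a median of 8.03. It also separated the groups, with a change of 0.59 ± 0.10 (adjusted p = 0.000283) that lay at the fold limit. The second largest subunit, Polr1b, had levels of 9.46, 9.95, 9.75, 9.25 and 9.18 in WT PCN, against 8.64 to 9.18 in WT CONT with a median of 8.92. Here the lowest treated mouse reached the range of the controls, the change was 0.61 ± 0.14 (adjusted p = 0.00259), and it was 0.29 within batch 1 and 1.00 within batch 2. Ubtf did not share the rise, with levels of 16.64 to 17.04 in WT PCN, 16.77 to 17.39 in WT CONT and a change of -0.19 ± 0.11 (adjusted p = 0.247), which was 0.02 with the deposited values. The other kept probes of Ubtf were far dimmer, with mean log2 signals of 9.52 and 7.86 against 17.02. Their changes were -0.10 (adjusted p = 0.341) and -0.11 (adjusted p = 0.451), and why the probes differ in level was not analysed here. The calls of Polr1b and Polr1e rested on the fold limit. Leaving out WT CONT replicate 2, WT CONT replicate 4, WT PCN replicate 2 or WT PCN replicate 3 took Polr1b under it, to between 0.52 and 0.57. Polr1e dropped under it, to between 0.54 and 0.58, when WT CONT replicate 1 or 3, any of WT PCN replicates 1, 2 and 3, or Pxr-/- PCN replicate 1 was left out. The adjusted p of both stayed under 0.05 in each of these fits.

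The largest changes of the set were in the snoRNP group, whose proteins guide 2 kinds of rRNA modification. Gar1, with Nhp2 and the enzyme Dkc1, belongs to the H/ACA particles that turn uridine into pseudouridine. Its levels were 12.21, 12.37, 12.19, 12.40 and 12.17 in WT PCN, against 10.92 to 11.26 in WT CONT with a median of 11.14. No WT PCN mouse came near a control, and the change was 1.15 ± 0.11, or 2.22-fold (adjusted p = 1.70e-07). Nhp2 had levels of 13.22, 13.25, 13.15, 13.13 and 13.15 in WT PCN, against 12.40 to 12.86 in WT CONT with a median of 12.62. These 5 values lay close together and above every control, with a change of 0.58 ± 0.08 (adjusted p = 4.86e-05) that was 1.49-fold and so just under the fold limit. Dkc1, the catalytic partner, had a change of 0.11 ± 0.08 (adjusted p = 0.342).

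Nop58 and Nop56 are the paired core proteins of the C/D particles, which methylate rRNA through the enzyme Fbl. Nop58 had levels of 10.71, 10.96, 10.54, 10.84 and 10.78 in WT PCN, against 9.45 to 10.02 in WT CONT with a median of 9.73. The gap between the groups was wide, and the change was 1.04 ± 0.14, or 2.05-fold (adjusted p = 3.28e-05). Nop56 had levels of 11.63, 12.10, 12.06, 11.70 and 11.84 in WT PCN, against 11.00 to 11.61 in WT CONT with a median of 11.18. The lowest treated mouse was just above the highest control, and the change was 0.65 ± 0.10 (adjusted p = 0.00013). Fbl had levels of 13.15, 13.21, 13.41, 13.23 and 13.11 in WT PCN, within the range of 13.04 to 13.33 in WT CONT but for 1 mouse, and its change of 0.06 ± 0.07 (adjusted p = 0.591) did not pass the test. So in both particles structural proteins (Gar1, Nhp2, Nop58 and Nop56) passed the adjusted p with folds of 1.49 or more, while the enzymes Dkc1 and Fbl did not pass it. Whether the enzymes differed from their partners was not tested. The probes of Gar1, Nop58 and Nop56 lie at chr3:129527855-129527914 (minus strand), chr1:59768230-59768289 (plus strand) and chr2:130104982-130105041 (plus strand) of mm9, the build of the array files, and their place within the transcripts was not analysed here.

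The promoters of Gar1, Nop58 and Nolc1, 3 of the genes with the largest changes, and of Nop2 are shown because the set moved largely together. Each is the 250 bases before the RefSeq start site in GRCm38.p6, written 5′ to 3′ on the gene's strand, with capitals for CCGGAA (the core of ETS factor sites) on either strand and for CACGTG, the E-box that MYC binds.
Gar1, chr3:129831397-129831646, minus strand: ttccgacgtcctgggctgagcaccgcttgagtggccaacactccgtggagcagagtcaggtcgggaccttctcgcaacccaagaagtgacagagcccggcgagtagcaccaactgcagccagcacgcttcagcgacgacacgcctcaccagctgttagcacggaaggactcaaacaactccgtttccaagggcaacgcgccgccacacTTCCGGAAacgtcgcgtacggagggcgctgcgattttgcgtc
Nop58, chr1:59684756-59685005, plus strand: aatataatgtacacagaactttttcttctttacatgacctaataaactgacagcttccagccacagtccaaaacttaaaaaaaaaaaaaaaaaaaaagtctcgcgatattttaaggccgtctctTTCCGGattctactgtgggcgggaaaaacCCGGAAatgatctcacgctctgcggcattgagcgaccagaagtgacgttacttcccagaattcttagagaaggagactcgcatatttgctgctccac
Nolc1, chr19:46075597-46075846, plus strand: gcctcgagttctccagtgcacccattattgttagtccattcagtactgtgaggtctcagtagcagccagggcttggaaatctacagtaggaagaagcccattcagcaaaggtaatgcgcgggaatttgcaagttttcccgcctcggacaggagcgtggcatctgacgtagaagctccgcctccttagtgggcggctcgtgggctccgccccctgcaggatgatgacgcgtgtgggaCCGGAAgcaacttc
Nop2, chr6:125131633-125131882, plus strand: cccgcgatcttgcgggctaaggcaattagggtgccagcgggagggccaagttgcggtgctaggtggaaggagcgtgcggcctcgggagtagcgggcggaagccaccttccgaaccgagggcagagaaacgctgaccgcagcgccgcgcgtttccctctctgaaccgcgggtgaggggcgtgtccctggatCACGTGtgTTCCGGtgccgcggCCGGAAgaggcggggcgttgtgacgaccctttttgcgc

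Promoter windows were at hand for 31 of the 36 genes, and a gene counted as holding a motif when any of its windows of 250 bases before a start site did, on either strand. CACGTG was in the windows of 1 of the 31 genes, Nop2 (3.23%), and in 6.86% of the 27025 genes with a window. It was in none of the 9 called genes that had a window. CCGGAA was in 10 of the 31 (32.3%) and in 13.6% of all genes, and among the 31 it was as frequent in the 9 called genes (3 genes, 33.3%) as in the other 22 (7 genes, 31.8%). Of the other motifs searched, the NRF1 site (GCGC and TGCGC with any 1 base between them) was in 3 of the 31 (9.68%) against 4.23% of all genes, and TCTCGCGA in 2 (6.45%) against 0.977%. These motifs were chosen after the sequences had been seen, none of them contains another, and a match is a description of letters in a window and not of binding.

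The nucleolar scaffold and chaperone group holds abundant proteins that organise the nucleolus. Nolc1, which binds both snoRNPs and RNA polymerase I, had levels of 10.75, 11.17, 10.96, 10.54 and 10.69 in WT PCN, against 9.94 to 10.57 in WT CONT with a median of 10.04. A single control, WT CONT replicate 2 at 10.57, reached into the treated range, and the change was 0.74 ± 0.13 (adjusted p = 0.000419). Gnl3, also known as nucleostemin, had levels of 9.92, 9.95, 9.86, 9.67 and 9.89 in WT PCN, against 9.13 to 9.37 in WT CONT with a median of 9.28. The groups did not overlap, and the change was 0.62 ± 0.10 (adjusted p = 0.000234), which fell to the fold limit without WT CONT replicate 2 (0.58, adjusted p = 0.000677). Mybbp1a had levels of 12.41, 12.67, 12.68, 12.49 and 12.40 in WT PCN, against 11.90 to 12.34 in WT CONT with a median of 12.04, again without overlap, and a change of 0.49 ± 0.07 (adjusted p = 4.86e-05) that was under the fold limit. The helicase gene Ddx21 (0.40 ± 0.12, adjusted p = 0.016) and Ncl, nucleolin (0.34 ± 0.10, adjusted p = 0.0163), passed the adjusted p alone. A second, dimmer probe of Ncl did not pass it (0.05, adjusted p = 0.752). Npm1, the chaperone nucleophosmin, had levels of 12.66 to 13.00 in WT PCN and 12.35 to 13.04 in WT CONT, with a change of 0.15 ± 0.10 (adjusted p = 0.322). Its 2 other probes had changes of 0.55 (adjusted p = 0.000343) and 0.25 (adjusted p = 0.0105). Both passed the adjusted p alone, so the probes of this gene disagreed.

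Small subunit assembly was represented by 11 genes, of which 2 were called higher, 5 more passed the adjusted p and 4 did not. Wdr43, a component of the complex that first binds the new precursor, had levels of 9.82, 10.16, 9.83, 9.81 and 9.72 in WT PCN, against 9.12 to 9.61 in WT CONT with a median of 9.19. The groups did not overlap although the highest control and the highest treated mouse each stood apart from its group, and the change was 0.64 ± 0.08 (adjusted p = 1.69e-05). Rrp12, which takes part in the export and late maturation of the precursor, had levels of 10.53, 10.91, 10.87, 10.14 and 10.37 in WT PCN, against 9.40 to 10.46 in WT CONT with a median of 9.81. Here the groups overlapped, the SE was the largest of the set and the change was 0.73 ± 0.16 (adjusted p = 0.00217). Nob1, the endonuclease that makes the final cut of small subunit rRNA, had levels of 8.54, 8.76, 8.68, 8.74 and 8.73 in WT PCN, against 8.02 to 8.44 in WT CONT with a median of 8.17, and its change of 0.50 ± 0.10 (adjusted p = 0.000965) was under the fold limit. The remaining 8 genes had changes from -0.09 (Pno1) to 0.43 (Wdr75). Rrp9 had levels of 8.51 to 9.08 in WT PCN, around the 8.66 to 8.90 of WT CONT, and a change of 0.05 ± 0.08 (adjusted p = 0.686). Pno1, the partner of Nob1, had a change of -0.09 ± 0.07 (adjusted p = 0.424), which was 0.07 with the deposited values.

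None of the 9 large subunit assembly genes was called in WT mice by limma, although all 9 changes were above 0, 6 passed the adjusted p and 8 had an unadjusted p under 0.05. Noc2l, a factor of the early large subunit precursor, had levels of 10.31, 10.61, 10.61, 10.32 and 10.39 in WT PCN, against 9.87 to 10.08 in WT CONT with a median of 9.99. All treated mice lay above all controls, with a change of 0.46 ± 0.07 (adjusted p = 6.34e-05). A second probe of Noc2l did not pass the adjusted p (0.27, adjusted p = 0.197). Nop2, which methylates large subunit rRNA and whose promoter is printed above, had levels of 11.83, 12.29, 12.10, 11.70 and 11.74 in WT PCN, against 11.23 to 11.59 in WT CONT with a median of 11.39. It also separated the groups, with a change of 0.55 ± 0.12, or 1.46-fold (adjusted p = 0.00238). Ftsj3, another rRNA methyltransferase, had levels of 12.30, 12.51, 12.52, 12.23 and 12.35 in WT PCN and 11.93 to 12.26 in WT CONT, with a change of 0.33 ± 0.08 (adjusted p = 0.00533). Bop1, Pes1 and Wdr12 form 1 complex needed for large subunit rRNA processing. Wdr12 passed the adjusted p (0.26 ± 0.08, adjusted p = 0.0173) and Pes1 did not (0.20 ± 0.08, adjusted p = 0.0713). A second, dimmer probe of Pes1 had a larger change that passed it (0.47, adjusted p = 0.0359). Bop1 had levels of 11.00 to 11.40 in WT PCN, 11.07 to 11.34 in WT CONT and a change near 0 (0.0014 ± 0.08, adjusted p = 0.992). The differences between these genes were not tested.

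**Figure D2:**
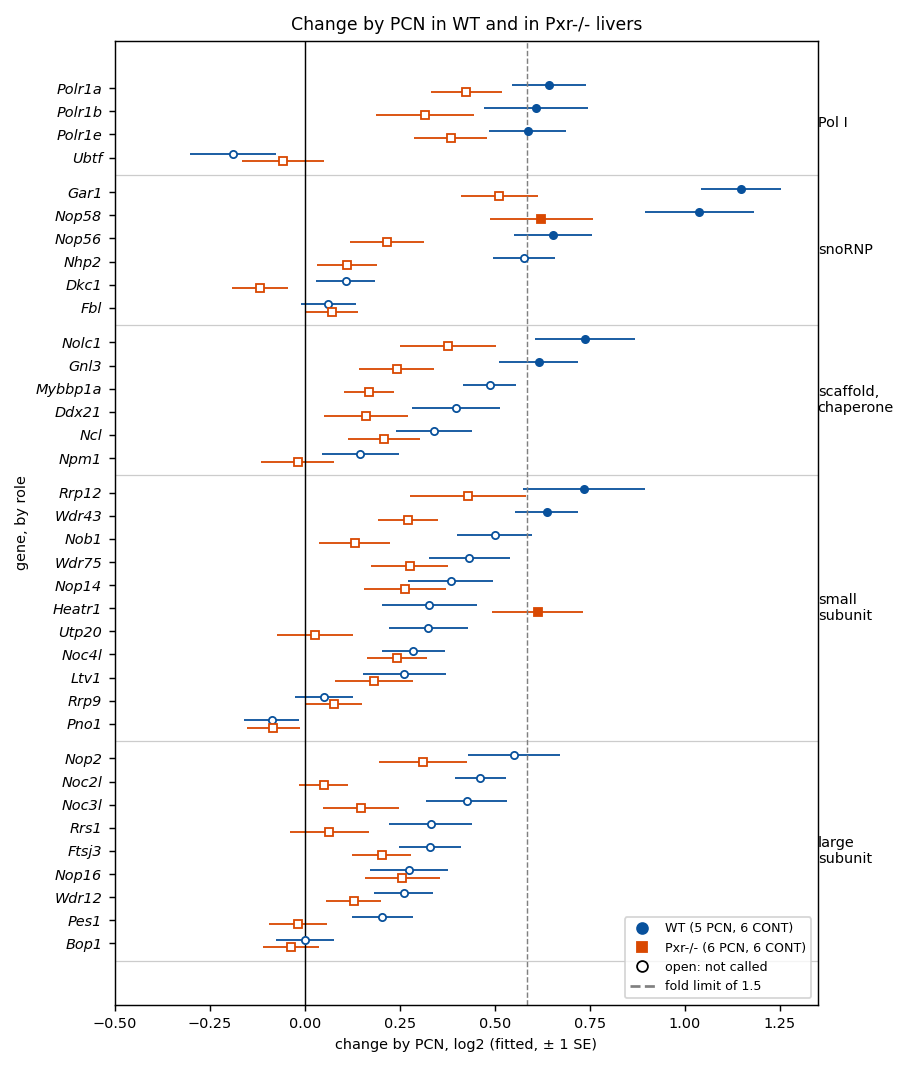
For each of the 36 genes, grouped by role, circles give the fitted log2 change by PCN in WT mice and squares that in Pxr-/- mice, with bars of 1 SE; filled symbols were called and the dashed line is the fold limit of 1.5. In WT mice 10 genes are filled, led by Gar1 at 1.15 and Nop58 at 1.04, and in Pxr-/- mice Nop58 and Heatr1 are filled.

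In 14 of the 36 genes every WT PCN mouse was above every WT CONT mouse (5.85% of all genes tested were of this kind), and in none was every treated mouse below (6.51% of all genes). The mice differed in how many genes they shared in. WT PCN replicate 2 was the highest of its group for 21 of the 36 genes, and WT PCN replicate 4 the lowest for 18. Among the controls WT CONT replicate 2 was the highest for 22 genes. The median deviation of the 36 genes from their WT CONT means was -0.13 to 0.19 in the WT CONT mice and 0.27 to 0.55 in the WT PCN mice, so the 2 groups did not overlap in this measure, and WT PCN replicate 2 and WT CONT replicate 2 had the highest values of their groups. Without WT PCN replicate 2 the number of called genes was 8, and without WT PCN replicate 4 it was 12.

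The array carried 73 probes for the 36 genes, 68 of which passed the filter. Besides the chosen ones, 32 kept probes covered 21 genes, and 30 of these had a change above 0 in WT mice, 6 were called higher and none lower. The 3 other kept probes of Nop58 gave changes of 1.08 or more, and the other probe of Gar1 gave 1.17 (adjusted p = 6.26e-06). For Polr1a, Rrp12 and Wdr43 the other kept probe was not called, with changes of 0.28 (adjusted p = 0.175), 0.55 (adjusted p = 0.0188) and 0.56 (adjusted p = 6.08e-05). With the mean of all kept probes in place of the brightest, Polr1a (0.46) and Nop56 (0.57) dropped under the fold limit.

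**Figure D3:**
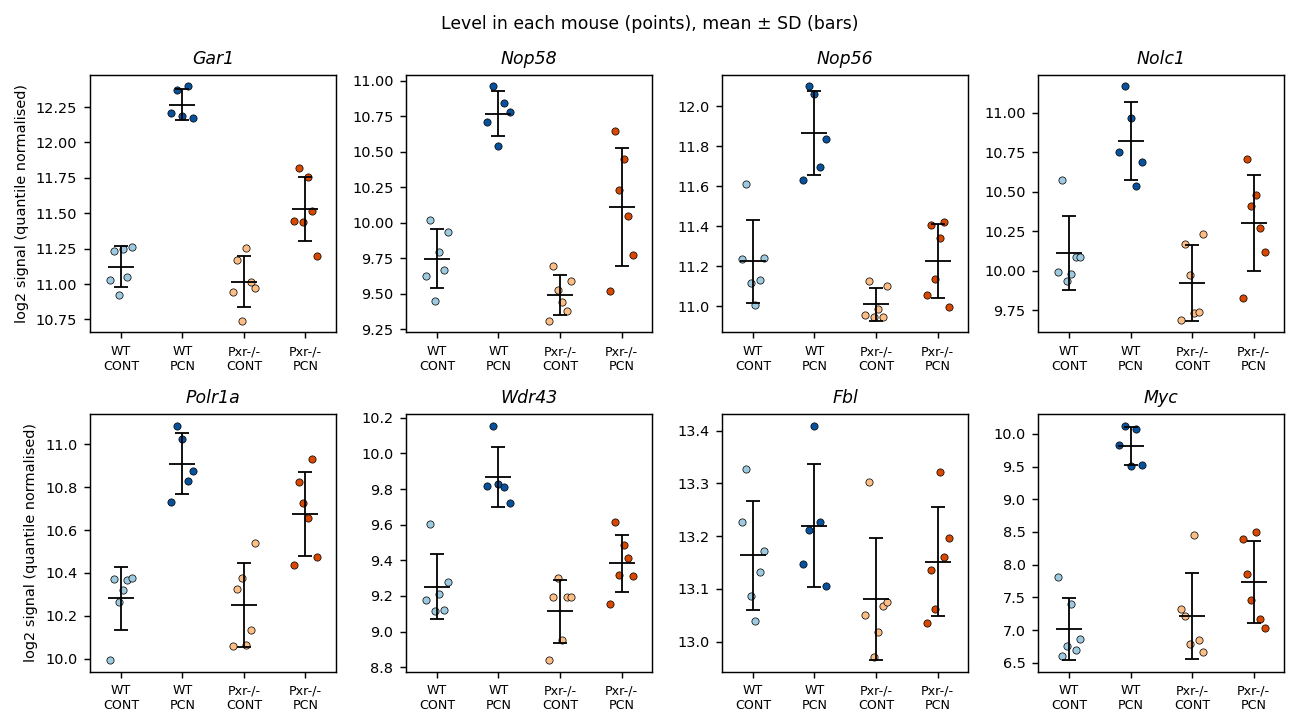
Each point is 1 mouse, with mean ± SD, and the vertical axis is the quantile normalised log2 signal of the gene's probe, on a scale of its own in each panel. Gar1, Nop58, Nop56, Nolc1, Polr1a and Wdr43 are highest in WT PCN, Fbl overlaps in all 4 groups, and Myc is at 9.51 or above only in WT PCN.

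In Pxr-/- mice, PCN raised 2 of the 36 genes and lowered none (1.43% of all genes were called higher and 0.86% lower, and no gene of the set had an unadjusted p under 0.05 in the lower direction). Nop58 had levels of 9.52 to 10.64 in Pxr-/- PCN with a median of 10.14, against 9.31 to 9.70 in Pxr-/- CONT with a median of 9.48. These groups overlapped, and the change was 0.62 ± 0.14 (adjusted p = 0.00912). Heatr1, a factor of small subunit assembly named here after its values were seen, had levels of 11.96 to 12.46 in Pxr-/- PCN with a median of 12.15, against 11.42 to 11.70 in Pxr-/- CONT with a median of 11.59. Its Pxr-/- groups did not overlap, with a change of 0.61 ± 0.12 (adjusted p = 0.00467), while in WT mice its change was 0.33 ± 0.13 (adjusted p = 0.0631). The difference between these changes did not pass the test (interaction -0.29 ± 0.17, adjusted p = 0.478). A second probe of Heatr1 was also called in Pxr-/- mice (0.75, adjusted p = 0.0033), and another, dim probe passed the adjusted p alone (0.26, adjusted p = 0.0349). The 3 other kept probes of Nop58 were also called higher in Pxr-/- mice (0.59, 0.73 and 0.74, adjusted p = 0.00493, 0.000832 and 0.0016). With the chosen probes, the calls of Nop58 and Heatr1 lay near the fold limit. Nop58 dropped to between 0.53 and 0.58 without Pxr-/- PCN replicate 2, 3 or 4 or Pxr-/- CONT replicate 5, and Heatr1 to between 0.56 and 0.58 without Pxr-/- PCN replicate 2 or 4 or Pxr-/- CONT replicate 3, each with an adjusted p still under 0.05. Neither gene was called within a single washing batch.

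Gar1, Polr1a, Polr1e and Wdr43 passed the adjusted p alone in Pxr-/- mice, which made 6 higher genes with the called ones and none lower (3.24% and 3.63% of all genes). Gar1 had levels of 11.20 to 11.82 in Pxr-/- PCN with a median of 11.48, against 10.74 to 11.26 in Pxr-/- CONT with a median of 10.99, and a change of 0.51 ± 0.10, or 1.43-fold (adjusted p = 0.00493). The other probe of Gar1 was called higher in Pxr-/- mice (0.66, adjusted p = 0.00558). Polr1a had a change of 0.43 ± 0.09 (adjusted p = 0.00954). The median change of the 36 genes was 0.19, against -0.01 over all genes, with 30 above 0. In 2 genes, Heatr1 and Noc4l, every Pxr-/- PCN mouse was above every Pxr-/- CONT mouse (1.57% of all genes), and in none was it below (1.58%). By mouse, the median deviation was -0.17 to 0.01 in Pxr-/- CONT and -0.09 to 0.25 in Pxr-/- PCN, so these groups overlapped. Pxr-/- PCN replicate 2 and 4 had the highest values (0.25 and 0.24), and without either of them no gene of the set was called in Pxr-/- mice.

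None of the other genes described in WT mice was called in Pxr-/- mice by limma. Among the polymerase I genes, Polr1a had levels of 10.44 to 10.93 in Pxr-/- PCN (median 10.69) and 10.06 to 10.54 in Pxr-/- CONT (median 10.23). Polr1e had 7.91 to 8.46 (median 8.33) against 7.73 to 8.06 (median 7.83), and Polr1b had 9.03 to 9.36 (median 9.25) against 8.49 to 9.21 (median 8.999). In each of these 3 genes the treated median was above the highest control, yet the groups overlapped. Ubtf had 16.87 to 17.33 (median 17.02) against 16.83 to 17.45 (median 17.17). Among the snoRNP genes, Nhp2 had 12.42 to 12.81 with PCN (median 12.61) against 12.34 to 12.65 without (median 12.47), and Nop56 had 11.00 to 11.42 (median 11.24) against 10.94 to 11.13 (median 10.97). The treated mice of both genes lay below every WT PCN mouse. Fbl had 13.03 to 13.32 (median 13.15) against 12.97 to 13.30 (median 13.06), so all its groups overlapped.

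Among the scaffold genes in Pxr-/- mice, Nolc1 had levels of 9.83 to 10.71 with PCN (median 10.34) against 9.69 to 10.24 without (median 9.86), and a change of 0.38 ± 0.13 (adjusted p = 0.0742). Gnl3 had 8.92 to 9.52 (median 9.32) against 8.85 to 9.33 (median 8.97), again below every WT PCN mouse. Mybbp1a had 12.07 to 12.54 (median 12.26) against 11.97 to 12.26 (median 12.14). Npm1 had close medians in both groups, with levels of 12.40 to 12.71 (median 12.62) against 12.51 to 12.88 (median 12.58). Of the small subunit genes, Wdr43 had 9.16 to 9.62 with PCN (median 9.36) against 8.84 to 9.30 without (median 9.19). Rrp12 had 9.52 to 10.43 (median 10.20) against 9.38 to 10.02 (median 9.62), with a change of 0.43 ± 0.15 that did not pass the test (adjusted p = 0.0943). Its lowest treated mouse was near the lowest control, as in Nob1, which had 7.80 to 8.45 (median 8.19) against 7.90 to 8.22 (median 8.06). Rrp9 had 8.72 to 9.01 (median 8.88) against 8.71 to 8.96 (median 8.78). Of the large subunit genes, Noc2l had 10.096 to 10.24 with PCN (median 10.19) against 10.06 to 10.29 without (median 10.102), so that its treated mice stayed within the control range. Nop2 had 10.98 to 11.77 (median 11.64) against 11.07 to 11.50 (median 11.17), and Ftsj3 had 11.83 to 12.34 (median 12.19) against 11.85 to 12.09 (median 11.93). In both the treated group reached beyond the controls at its upper and its lower end. Bop1 had 11.04 to 11.38 (median 11.22) against 11.06 to 11.38 (median 11.26).

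The interaction term tested whether PCN changed a gene more in WT than in Pxr-/- mice. It was called for 1 of the 36 genes, Gar1 (0.808% of all genes were called in this direction), whose change was larger in WT mice by 0.64 ± 0.15 (adjusted p = 0.0257). The interaction of the other probe of Gar1 did not pass the test (0.51, adjusted p = 0.213). Nhp2 (0.47 ± 0.11, adjusted p = 0.0403) and Noc2l (0.41 ± 0.09, adjusted p = 0.0244) passed the adjusted p alone (1.05% of all genes), and in Pxr-/- mice their changes were 0.11 ± 0.08 and 0.05 ± 0.06. The interaction of the other probe of Noc2l did not pass the adjusted p (0.24, adjusted p = 0.651). For 31 of the 36 genes the fitted change was larger in WT, and the median of the differences was 0.22 against -0.01 over all genes. With the deposited values 35 of the differences were above 0. All 10 genes called in WT mice were among the 31. They were picked by their change in WT mice, which by itself favours a larger change there, so no conclusion was drawn from them. For the other 9 genes called in WT mice, a difference between genotypes did not pass the adjusted p. The largest of these differences was that of Nop56 (0.44 ± 0.14, adjusted p = 0.139), and for Nop58 the difference was 0.42 ± 0.20 (adjusted p = 0.341). The interaction of Gar1 was 0.92 within batch 1 and 0.35 within batch 2, where it was not called (adjusted p = 0.525). With the deposited values it was 0.76 and was not called (adjusted p = 0.0568), and with the mean of all kept probes it was 0.57, under the fold limit (adjusted p = 0.0461). It lost its call when any one of WT CONT replicates 1 and 3, WT PCN replicates 2 and 4, Pxr-/- CONT replicate 4, and Pxr-/- PCN replicates 3 and 6 was left out, with values of 0.57 to 0.62 and adjusted p-values of 0.0382 to 0.0652. For Nhp2 the adjusted p rose above 0.05 in 17 of the 23 fits that left out 1 array, up to 0.0935, and for Noc2l in 2 of 23 (WT PCN replicate 2 or 3), up to 0.0714.

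Without PCN, none of the 36 genes differed between Pxr-/- CONT and WT CONT (0.228% of all genes were called higher and 0.0808% lower). Changes ran from -0.26 to 0.14 with a median of -0.10 against -0.0047 over all genes, the lowest adjusted p was 0.419, and 1 higher and 3 lower genes had an unadjusted p under 0.05. In none of the 36 genes did the 2 control groups lie apart (0.461% of all genes did so with Pxr-/- CONT higher and 0.375% with it lower). Between the treated groups, 3 of the 36 genes were lower in Pxr-/- PCN than in WT PCN and none was higher (1.36% of all genes were called lower). These were Gar1 (-0.74 ± 0.11, adjusted p = 0.000135), Nop58 (-0.67 ± 0.14, adjusted p = 0.00616) and Nop56 (-0.65 ± 0.10, adjusted p = 0.000471). Gnl3 (-0.58 ± 0.10, adjusted p = 0.00138) and Nhp2 (-0.58 ± 0.08, adjusted p = 0.00014) lay just under the fold limit. Nop56 had levels of 11.00 to 11.42 in Pxr-/- PCN, under the 11.63 to 12.10 of WT PCN. The call of Nop58 was lost without Pxr-/- PCN replicate 1, its lowest mouse (-0.56, adjusted p = 0.0154). By the adjusted p alone 17 genes were lower and none higher (4.96% and 3.92% of all genes). The 17 differences ran from -0.25 to -0.74. In 9 genes every Pxr-/- PCN mouse was below every WT PCN mouse and in none above (3.67% and 3.21% of all genes), and the median over the 36 was -0.28 against 0.01 over all genes. This comparison shares its WT PCN arrays with the comparison of PCN in WT mice, so the counts are not independent. The count of called genes was 12 with the deposited values, where the median difference of all probes was -0.18 and 4.21% of all probes were called lower. It was 6 with the processed signal, 5 with median centring and none within batch 2. It was 2 without Pxr-/- PCN replicate 1, 5 without WT PCN replicate 3 or Pxr-/- PCN replicate 2, 3 or 4, and 7 without WT PCN replicate 4.

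Other genes of ribosome production were set beside the 36. Of 120 further biogenesis factors, 119 passed the filter, and PCN raised 7 of these in WT mice and lowered none by both criteria (3.78% and 2.39% of all genes). By the adjusted p alone 51 were higher and 2 lower (11.6% and 12.4% of all genes). Nle1, a large subunit assembly factor, rose by 0.89 ± 0.09 (adjusted p = 6.35e-07), with 8.09 to 8.57 in WT PCN against 7.32 to 7.61 in WT CONT. Tsr1, a small subunit factor, rose by 0.74 ± 0.11 (adjusted p = 7.14e-05) and Rrp15 by 0.61 ± 0.09 (adjusted p = 7.01e-05), and Cd3eap, Rrp1b, Ppan and Nip7 were the others. The median over the 119 was 0.20, about midway between that of the 36 genes (0.39) and that of all genes (-0.02). In Pxr-/- mice none of the 119 was called by limma, and the median was 0.13. By the adjusted p alone 14 were higher there and none lower (3.24% and 3.63% of all genes). At an unadjusted p under 0.05, 39 were higher and 2 lower in Pxr-/- mice, against 63 and 7 in WT mice.

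The 78 measured genes of cytosolic ribosomal proteins, the building blocks that the 36 factors assemble, moved little but in 1 direction in WT mice. None was called by limma, 54 had an unadjusted p under 0.05 and 35 passed the adjusted p, all of these higher. Their changes ran from -0.08 to 0.51 with a median of 0.18, and 77 of the 78 were above 0. In Pxr-/- mice the median was 0.01, with 45 of 78 above 0 and 1 gene at an unadjusted p under 0.05. In the interaction none of the 78 passed the adjusted p. There 76 of the differences were above 0, with a median of 0.16, and 28 had an unadjusted p under 0.05. Among 13 measured snoRNA host genes, Snhg1 was called in WT mice (0.71 ± 0.13, adjusted p = 0.000554). None of the 34 tRNA synthetase and translation factor genes was called in WT mice by limma, 6 had an unadjusted p under 0.05, and their median was 0.05.

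**Figure D4:**
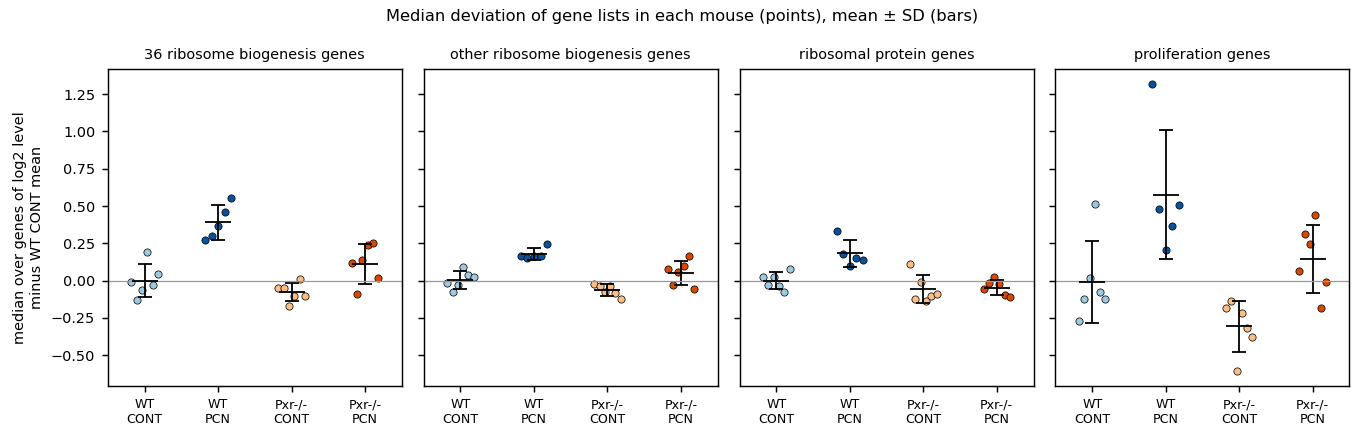
Each point is 1 mouse and gives the median over the genes of a list of the log2 level minus the gene's WT CONT mean, with mean ± SD per group. The WT PCN mice lie above the WT CONT mice for the 36 ribosome biogenesis genes (0.27 to 0.55 against -0.13 to 0.19), for the other biogenesis genes and for the ribosomal protein genes, and the 2 groups overlap for the proliferation genes.

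Myc, the gene of the transcription factor named above, had levels of 9.84, 10.13, 9.51, 10.07 and 9.52 in WT PCN, against 6.60 to 7.81 in WT CONT with a median of 6.81. This was a change of 2.77 ± 0.30, or 6.81-fold (adjusted p = 1.85e-06). In Pxr-/- mice the levels were 7.03 to 8.51 with PCN and 6.66 to 8.45 without, and the change of 0.52 ± 0.29 was not called (adjusted p = 0.300). The change of Myc was larger in WT mice by 2.24 ± 0.41 (interaction, adjusted p = 0.00417), and this was 2.71 and 1.83 within batches 1 and 2, where neither was called (adjusted p = 0.0733 and 0.136). The related gene Mycn fell in both genotypes, by 1.83 ± 0.26 in WT (adjusted p = 4.80e-05) and by 1.62 ± 0.25 in Pxr-/- mice (adjusted p = 0.000951). The part of Myc in the levels of the 36 genes was not tested.

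The probe named for 5.8S rRNA (Rs5-8s1), a product of the polymerase I precursor, was the only called probe of 5 rRNA and rRNA-processing RNA probes measured. Its levels were 15.16, 13.86, 14.60, 14.93 and 15.92 in WT PCN, against 16.56 to 17.25 in WT CONT with a median of 17.04. It fell by 2.11 ± 0.28 in WT mice (adjusted p = 2.13e-05) and by 1.05 ± 0.27 in Pxr-/- mice (adjusted p = 0.021), and the difference between these changes did not pass the test (adjusted p = 0.193). Between the treated groups it was called higher in Pxr-/- PCN than in WT PCN (0.96 ± 0.28, adjusted p = 0.0374). Its sequence is shown so that it can be placed in the mature RNA, and the array files give no genome position for it.
Rs5-8s1 probe: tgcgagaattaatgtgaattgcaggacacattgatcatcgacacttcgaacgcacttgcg
The probes for 18S rRNA (0.02 ± 0.05, adjusted p = 0.809) and 28S rRNA (-0.11 ± 0.10, adjusted p = 0.472) had changes near 0 in WT mice. Quantile normalisation gives the brightest probe of every array the same level. For a probe at the top of the range, a change near 0 can therefore be set by the normalisation, and no conclusion was drawn from it. The labelling reaction is designed for RNA with a poly(A) tail, which mature rRNA does not carry as a rule, so the signals of the rRNA probes were not read as amounts of rRNA.

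Proliferation genes moved in the same samples. Of 21 measured, 10 were called higher in WT mice, led by the mitotic kinase Plk1 (1.41 ± 0.28, adjusted p = 0.00106), Mki67 (1.37 ± 0.29, adjusted p = 0.00161) and the cyclin Ccna2 (1.32 ± 0.29, adjusted p = 0.00246), with a median of 0.48 over the list. In Pxr-/- mice 3 were called higher, and the median was 0.35. Of all genes, 3.78% were called higher in WT and 1.43% in Pxr-/- mice. None of the 21 passed the adjusted p in the interaction, where 14 differences were above 0 and the median was 0.10. By mouse the order was not that of the 36 genes: WT PCN replicate 4, with the lowest median of its group for the 36 genes (0.27), had the highest for the proliferation genes (1.32). Among the marker lists of other liver cells, 3 of 10 stellate cell markers were called higher in WT mice, Col1a1 (3.17 ± 0.42, adjusted p = 2.33e-05), Col1a2 (2.18 ± 0.35, adjusted p = 0.000141) and Col3a1 (2.18 ± 0.35, adjusted p = 0.000173), and the same 3 in Pxr-/- mice. The other 7 stellate markers did not pass the adjusted p in WT mice, with changes from -0.47 (Lrat) to 0.41 (Pdgfrb), 3 of them below 0, and the median of the list was 0.16. The log2 of the summed level of the stellate list was 14.63 to 15.36 in WT CONT, 15.09 to 15.69 in WT PCN, 14.42 to 15.17 in Pxr-/- CONT and 14.50 to 15.60 in Pxr-/- PCN. Of 7 measured cholangiocyte markers Sox9 was called (0.76 ± 0.21, adjusted p = 0.0109), and the log2 of the summed level of that list was 10.65 to 12.27 in WT CONT, 11.75 to 13.00 in WT PCN, 10.93 to 11.77 in Pxr-/- CONT and 11.24 to 12.56 in Pxr-/- PCN. Of the Kupffer, endothelial, lymphocyte and blood markers measured, none was called in WT mice by limma, and 0, 3, 2 and 1 of them had an unadjusted p under 0.05. The lymphocyte markers Cd3d (-0.37 ± 0.12, adjusted p = 0.0253) and Cd3g (-0.45 ± 0.11, adjusted p = 0.00641) passed the adjusted p alone and were lower, as was the blood marker Alas2 (-0.43 ± 0.15, adjusted p = 0.0422). All 4 blood markers measured had changes below 0, with a median of -0.39 in WT and -0.42 in Pxr-/- mice. The part of these cells and of dividing cells in the changes of the 36 genes was not tested.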

How the data were processed

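RNA of 23 livers was hybridised to 1-colour Agilent mouse arrays, 1 array per mouse. Per the file headers, the authors extracted spot intensities with Agilent Feature Extraction 10.10.1.1, and the median signal intensity used here (gMedianSignal) is not background-subtracted. The authors also deposited a table of normalised log2 values of the same arrays (32574 probes, column medians of 7.54 to 8.01), whose centring is not described in full in the sources used here. It served as an alternative.

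From the intensities, control spots and 2225 outlier spots were left out, log2 was taken, and spots of a probe were averaged. Probes well above background on over 50% of the arrays in any 1 group were kept (32087 of 56605), and quantile normalisation followed. In 1 limma fit (limma 3.58.1, R 4.3.3) over all 23 arrays, with group terms and washing batch as an additive term (2 batches, 18 residual degrees of freedom), p-values were adjusted by the Benjamini-Hochberg method over all kept probes. Quantile normalisation makes levels relative, so that a change shared by most genes would not be seen. The number of arrays limits the precision. The fit was tested on simulated data.

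Groups came from the sample titles. The labels do not say which mice shared a cage or an extraction. Replicate numbers were not treated as pairs of mice, and whether they pair mice was not tested. Over 33 same-numbered pairs, correlations of deviations from the group means ran from -0.25 to 0.49 with a median of 0.07, and 11 were above 0.1. Over differently numbered pairs the median was -0.02. These deviations were not corrected for washing batch. The 36 genes and all gene lists were chosen with earlier results of these data known. Values of every group are given, in each role, for up to 3 genes with the smallest p for PCN in WT and for the one with the largest, and for further genes called in the interaction or between genotypes. Of each other list up to 3 called genes and Myc are named. Alternatives were other signals and background correction, the deposited values, median centring, other filters, no batch term, slide or replicate number as a block, single batches, fits of only the groups compared, the mean of all probes, no fold limit, and leaving out each array. Promoter windows are from RefSeq (GRCm38.p6).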

Additional observations from a re-analysis of the deposited data

Results flagged for a closer look

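For 4 genes the change by PCN differed between WT and Pxr-/- mice in the interaction test of the limma fit. It was larger in WT mice by 0.64 on the log2 scale for Gar1 (adjusted p = 0.0257), by 0.47 for Nhp2 (adjusted p = 0.0403), by 0.41 for Noc2l (adjusted p = 0.0244) and by 2.24 for Myc (adjusted p = 0.00417). The other probes of Gar1 (0.51, adjusted p = 0.213) and of Noc2l (0.24, adjusted p = 0.651) did not pass this test.

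A mouse far from the others of its group was looked for in 156 sets of values, those of the 36 genes, Myc, the 5.8S rRNA probe and the median of the 36 genes in the 4 groups, with Dixon's ratio (the gap to the next mouse over the whole range). It was found in 15 of them (9.62%), where chance gives about 1 in 20. In WT CONT the mouse was replicate 1 for Polr1a (lowest, ratio 0.703), replicate 4 for Dkc1 (lowest, 0.652) and for Heatr1 (highest, 0.648), and replicate 2 for Nolc1 (highest, 0.761) and Wdr43 (highest, 0.67). In WT PCN it was replicate 2 for Wdr43 (highest, 0.756). In Pxr-/- CONT it was replicate 2 for Fbl (highest, 0.685), Ncl (lowest, 0.632) and Nop14 (lowest, 0.737), replicate 1 for Noc4l (lowest, 0.746), and replicate 4 for Noc2l (highest, 0.681) and Myc (highest, 0.632). In Pxr-/- PCN it was replicate 1 for Utp20 (lowest, 0.66) and Nop2 (lowest, 0.661), and replicate 6 for Pno1 (lowest, 0.754). The median of the 36 genes had no such mouse in any group.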

How the results depend on the processing

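None of the 19 called changes (of the 36 genes and Myc over 5 comparisons) reversed its direction. Of the 166 that were not called, 54 changed sign in at least 1 alternative, 16 of them with the authors' deposited values. These 54 were at most 0.29 in size, and none was called where its sign changed. With the authors' deposited values the median change of all probes was 0.11 for PCN in WT, -0.11 between the controls and -0.18 between the treated groups. In the main fit these medians were -0.02, -0.01 and 0.01. With the deposited values 16 of the 36 genes were called for PCN in WT (median change 0.54), and 5.91% of all probes were called higher, against 3.38% in the main fit. In Pxr-/- PCN 12 genes were lower than in WT PCN (median -0.51), and 4.21% of all probes were called lower, against 1.15% in the main fit. None was called in the interaction, and the median between the controls was -0.24. With the processed signal, 1 gene was called in Pxr-/- mice and 6 were lower between the treated groups, and with median centring 5 were. Within batch 1, no gene was called in Pxr-/- mice and 2 in the interaction. Within batch 2, none was called in Pxr-/- mice, in the interaction or between the treated groups. With the mean of all kept probes none was called in the interaction. With no fold limit the counts were 25 for PCN in WT, 6 for PCN in Pxr-/-, 3 for the interaction and 17 lower between the treated groups. Without 1 array at a time the counts were 8 to 12 for PCN in WT, 0 to 3 for PCN in Pxr-/-, 0 to 1 for the interaction and 2 to 7 lower between the treated groups, and none was called between the controls. The medians were then 0.36 to 0.43, 0.17 to 0.23, 0.19 to 0.25, -0.13 to -0.08 between the controls and -0.32 to -0.24 between the treated groups. With replicate number as a block, 8 genes were called for PCN in WT (median 0.37), since Polr1e (0.58) and Gnl3 (0.57) dropped under the fold limit, 2 in Pxr-/- mice and 1 in the interaction.

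Over 37 fits, the calls of Gar1, Wdr43 and Myc for PCN in WT held in all, those of Polr1a, Nop58, Nolc1 and Rrp12 in 36, of Nop56 in 35, of Gnl3 in 33, of Polr1b in 32 and of Polr1e in 28. The interaction of Gar1 was called in 26 of 36. Within a single batch the groups hold 2 or 3 mice, so a call missed there says little. Most of the 36 changes were under 1.5-fold, and the counts above the fold limit therefore move with small shifts. The causes of these differences were not tested.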
